A study of Mus musculus with 43 samples.

Results

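Lungs of mice given an anti-IL-33 antibody during 15 weeks of house dust mite (HDM) exposure were compared with lungs of mice that had the same exposure and no antibody. The members were chosen by the treatment written in the sample titles, which gave 15 anti-IL-33 libraries and 7 untreated libraries, 22 of the 43 libraries in the series. Every mouse carried a humanised Il33 gene on both alleles (Il33hu/hu) on a mixed background of 75% C57BL/6NTac and 25% 129S6SvEvTac. The other groups held 4 libraries from 15 weeks of HDM with an isotype control antibody, 10 from 4 weeks of HDM and 7 from saline, and all were from lung. The untreated mice received no antibody at all, so blocking IL-33 and giving an antibody cannot be told apart in this comparison. The sources used here do not give age, sex, dose or schedule.

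IL-33 is an alarmin, a cytokine kept in the nucleus of epithelial and other barrier cells and set free when they are damaged. It binds ST2, the product of Il1rl1, together with the shared receptor chain Il1rap, and signals through Myd88. In the lung it is best known for driving group 2 innate lymphoid cells, mast cells and type 2 helper T cells to make IL-5 and IL-13. IL-13 acts through Il4ra and STAT6 on macrophages and airway epithelium, where it raises eosinophil-attracting chemokines, Arg1 and mucus genes.

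Total counts (M, mega-counts) lay between 5.13 and 12.6 M in anti-IL-33 libraries and between 4.91 and 11.5 M in untreated libraries. The lung markers Sftpc, Sftpb, Scgb1a1, Ager and Foxj1 were present in every library of both groups. Values are counts per M after scaling (CPM), given as lowest, median and highest library, and libraries are numbered within a group only to name them. Samples are numbered in 2 blocks of numbers, called number ranges 1 and 2, with 8 anti-IL-33 and 5 untreated libraries in range 1 and 7 and 2 in range 2, and this range was a term of the fit. Several libraries stood apart. Anti-IL-33 libraries 7 and 12 held markers of squamous epithelium and skeletal muscle, and library 7 also held markers of fat. Among untreated libraries, number 1 was far from the others in surfactant, antigen presentation, collagen and lipid synthesis genes, and number 4 had the highest values of many inflammatory genes.

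Anti-IL-33 lungs differed widely from untreated lungs. Of 15598 genes tested, 5588 were called at an adjusted p under 0.05 by edgeR's quasi-likelihood test with Benjamini-Hochberg (BH) adjustment, which is 35.8%. Of these, 2485 were higher with anti-IL-33 (15.9% of genes tested) and 3103 were lower (19.9%). A change of at least 2-fold was called for 370 genes that rose (2.37%) and 303 that fell (1.94%). The median log2 fold change over all genes was 0.00. Single libraries weighed on these counts. Without untreated library 1 the number of called genes was 3459, without untreated library 4 it was 4038, and without both it was 1456. Without untreated library 1, 1658 of 15591 genes tested were higher and 1801 lower. Without both, 765 of 15586 were higher and 691 lower. List counts given below for these settings are to be read beside those totals. In all of these fits at least 5487 of the 5588 genes kept their direction. These genes were called in a fit that holds all the libraries kept, so a kept direction largely follows from that choice. Without both libraries, 1307 of the 5588 genes stayed called. Of 115 genes examined singly, not all of them called over all libraries, 26 lost their call in that fit. Against the 4 isotype libraries, 39 of the 63 named genes that fell and 6 of the 33 that rose also passed the test, against 3.14% of all genes called lower and 3.57% called higher in that comparison, and 63 and 32 kept their direction. Both comparisons use the same anti-IL-33 libraries, and most named genes were chosen by their change against untreated libraries. A share above that of all genes therefore follows in part from this choice. In 2 of the named genes, Gzma and Inmt, every isotype library lay beyond every untreated one in the direction of the anti-IL-33 change.

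**Figure D1:**
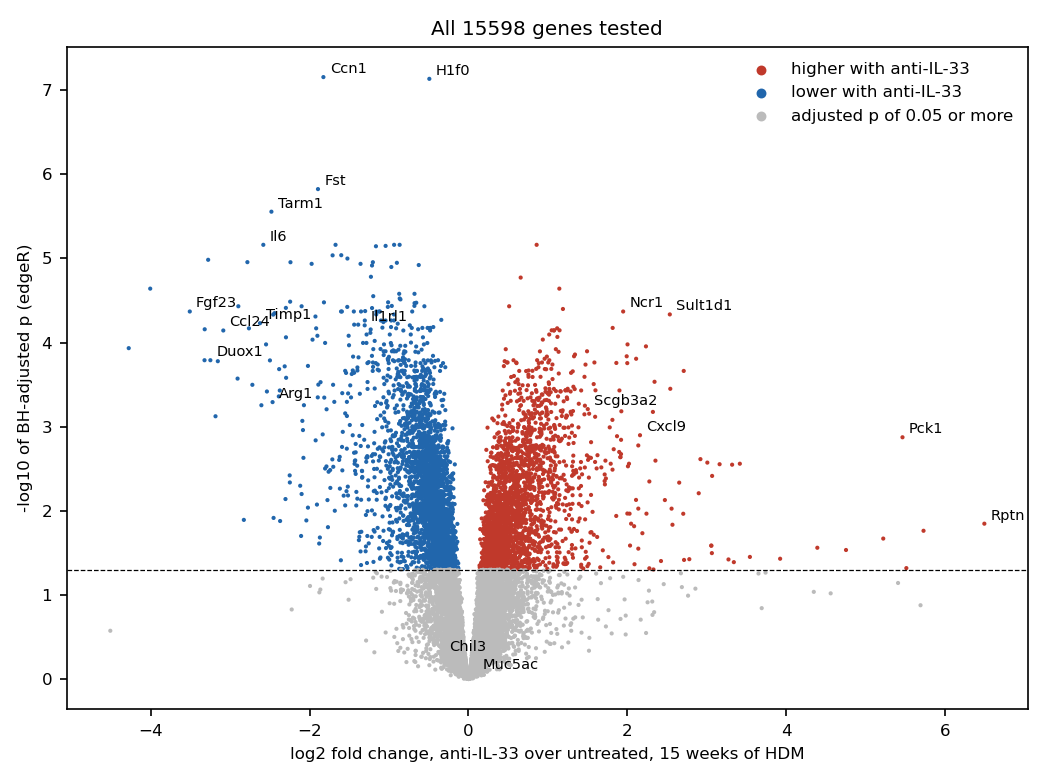
Log2 fold change (anti-IL-33 over untreated, x axis) against -log10 of the adjusted p (y axis) for the 15598 genes tested, with red for the 2485 genes called higher, blue for the 3103 called lower and grey for the rest. Ccn1 and H1f0 have the smallest adjusted p, Rptn and Pck1 lie far to the right, and Chil3 and Muc5ac lie near the bottom.

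The receptor of IL-33 fell. Il1rl1 (Entrez 17082, chr1:40404864-40465418, GRCm38.p6) had 6.58, 12.57 and 24.8 CPM in anti-IL-33 libraries, against 22.3, 28.8 and 62.2 CPM in untreated libraries. Of the 15 anti-IL-33 libraries 14 lay below every untreated one, and their median was near the saline median of 11.6 CPM. The log2 fold change was -1.31 ± 0.21 (SE; adjusted p = 6.24e-05). Il33 itself (Entrez 77125, chr19:29925113-29960718) had 21.5, 248 and 511 CPM in anti-IL-33 libraries and 117, 579 and 869 CPM in untreated libraries. The groups overlapped through untreated library 1, which held the 117 CPM, and the next lowest untreated library had 556 CPM. Il33 fell by 1.26 ± 0.30 on the log2 scale (adjusted p = 0.00172), while 13 of 15 anti-IL-33 libraries stayed above the highest saline library at 133 CPM. The sources used here do not say how reads of the humanised gene were assigned to Il33, and its values carry that limit.

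Of 11 measured genes of the IL-33 and alarmin list 5 fell and none rose, with a median log2 fold change of -0.23 against 0.00 over all genes. The adaptor Myd88 changed by -0.56 ± 0.11 (adjusted p = 0.000283), and by -0.29 without untreated libraries 1 and 4, and Crlf2, the TSLP receptor, and the kinase gene Irak4 were the other members called. The alarmin Tslp, at 0.25, and Il17rb, the IL-25 receptor gene, at 0.08, did not pass the test. In these whole lung samples, fewer cells of a type and less RNA per cell cannot be told apart.

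Type 2 cytokine genes fell with anti-IL-33. Il13, which drives mucus and airway changes, had 0, 0.209 and 1.17 CPM in anti-IL-33 libraries, against 0.819, 1.63 and 3.10 CPM in untreated libraries, and 13 of 15 anti-IL-33 libraries lay below every untreated one. Its log2 fold change was -2.39 ± 0.48 (adjusted p = 0.000436). Il5, the eosinophil growth factor, changed by -2.08 ± 0.51 (adjusted p = 0.00235) and Il4 by -1.29 ± 0.39 (adjusted p = 0.0112). Without untreated libraries 1 and 4, Il4 changed by -1.05 and did not pass (adjusted p = 0.125). These 3 genes are rare transcripts, with group medians below 2 CPM. Il13ra2, the decoy receptor for IL-13, fell by 2.76 ± 0.46 (adjusted p = 6.77e-05), with 0, 0.265 and 0.818 CPM in anti-IL-33 libraries against 0.251, 1.98 and 6.45 CPM in untreated libraries. The signalling receptor Il4ra changed by -0.67 ± 0.12 (adjusted p = 0.000189), and by -0.27 without untreated libraries 1 and 4. In the whole list of type 2 cytokines, lymphocyte genes and receptors 8 of 15 fell and 1 rose (Rora, at 0.31), with a median of -0.54, and 5 fell and 0 rose without untreated libraries 1 and 4. Gata3, the type 2 lineage factor, was at -0.34 and did not pass the test.

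STAT6, which IL-4 and IL-13 activate, binds a palindrome of TTC and GAA with 4 free bases between them, and other STAT factors prefer 3 free bases, TTCNNNGAA. Both were searched on both strands in the 250 bases before the start of the genes with the largest changes and the fixed names that passed the test, using RefSeq promoters of GRCm38.p6. The longer palindrome was in 4 of 16 genes that fell and had a promoter entry (Duox1, Il33, Il4, Retnla) and in 0 of 9 that rose, against 6.757% of 27025 genes. The shorter one was in 1 of the 16 (Fgf23) and in 2 of the 9 (Cdsn, Ifng), against 8.13% of genes. The stretches below show 4 of the genes that fell, with the palindrome in capitals, each in the direction of its gene. They lie at chr16:48842449-48842488 on the plus strand for Retnla, chr11:53618808-53618847 on the minus strand for Il4, chr2:122315590-122315629 on the plus strand for Duox1 and chr6:127072786-127072824 on the plus strand for Fgf23. The Il33 promoter read here is that of the mouse reference, while the mice carry a humanised gene. A match describes these letters and is not evidence of binding.
Retnla: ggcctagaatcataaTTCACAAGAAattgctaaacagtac
Il4: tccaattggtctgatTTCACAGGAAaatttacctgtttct
Duox1: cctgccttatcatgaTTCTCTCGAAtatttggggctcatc
Fgf23: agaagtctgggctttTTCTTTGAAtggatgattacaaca

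Chemokines that draw eosinophils and monocytes were among the strongest falls. Ccl11, the eosinophil chemokine eotaxin-1 (chr11:82057832-82062955), had 3.83, 13.9 and 28.2 CPM in anti-IL-33 libraries and 24.1, 57.6 and 84.1 CPM in untreated libraries. All but 2 anti-IL-33 libraries lay below every untreated one, and the log2 fold change was -1.93 ± 0.31 (adjusted p = 4.90e-05). Ccl24, eotaxin-2, had 0, 0.495 and 2.96 CPM in anti-IL-33 libraries against 2.22, 4.55 and 22.3 CPM in untreated libraries, a change of -3.09 ± 0.52 (adjusted p = 7.19e-05). Their receptor Ccr3 changed by -1.44 ± 0.35 (adjusted p = 0.00204). The monocyte chemokines Ccl2 and Ccl9 changed by -1.97 ± 0.28 and -1.71 ± 0.24 (adjusted p = 1.16e-05 and 9.19e-06), and every anti-IL-33 library lay below every untreated one for Ccl9. Of 17 measured CC chemokines and receptors 8 fell and none rose, with a median of -0.53. Ccl17, which attracts CCR4-bearing type 2 T cells, had 3.29, 7.94 and 16.3 CPM in anti-IL-33 libraries and 6.06, 12.5 and 15.9 CPM in untreated libraries, and its change of -0.53 ± 0.30 did not pass the test (adjusted p = 0.157).

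Eosinophil genes did not move together. Ccr3, the granule gene Prg2 and the lipoxygenase gene Alox15 fell, while Ear1, a ribonuclease gene, and the receptor gene Adgre4 rose. These were 3 and 2 of 9 measured, against 19.9% and 15.9% of all genes, with a median of -0.07. Without untreated libraries 1 and 4, 1 fell and 1 rose. Ear1 had 3.93, 8.06 and 22.6 CPM in anti-IL-33 libraries and 1.29, 3.39 and 4.76 CPM in untreated libraries, a log2 fold change of 1.86 ± 0.34 (adjusted p = 0.000175). Saline libraries had 4.96 to 24.1 CPM of Ear1 and 8.98 to 39.5 CPM of Adgre4, above every untreated library in both genes. For Prg2 and Alox15 every saline library lay below every untreated one, and for Ccr3 saline and untreated libraries overlapped. Ear genes are near-identical copies, and the sources used here do not say how reads were shared between them. Among mast cell and basophil genes 1 of 12 rose (Gata2, 0.66 ± 0.19, adjusted p = 0.00685) and 1 fell (Hdc, the histamine-forming enzyme, -0.57 ± 0.17, adjusted p = 0.00905), shares below the 15.9% and 19.9% of all genes. Hdc did not pass without untreated libraries 1 and 4, at -0.37 (adjusted p = 0.184), or without untreated library 1 and anti-IL-33 libraries 7 and 12 (adjusted p = 0.0527). The mast cell protease genes of the list did not pass the test.

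Genes of alternatively activated macrophages fell, with exceptions among the most abundant. Arg1, the arginine-degrading enzyme, had 5.36, 19.3 and 136 CPM in anti-IL-33 libraries, against 88.3, 133 and 527 CPM in untreated libraries. Of the anti-IL-33 libraries 12 lay below every untreated one, all 15 lay above the highest saline library at 3.33 CPM, and the log2 fold change was -2.47 ± 0.50 (adjusted p = 0.00051). Retnla, the secreted protein RELM-alpha, had 98.4, 566 and 1580 CPM in anti-IL-33 libraries and 1007, 1917 and 3622 CPM in untreated libraries, a change of -1.91 ± 0.56 (adjusted p = 0.00844). Il1rn, the IL-1 receptor antagonist, changed by -2.02 ± 0.37 (adjusted p = 0.00019) and the crosslinking enzyme Tgm2 by -0.72 ± 0.13 (adjusted p = 0.00019), or by -0.39 without untreated libraries 1 and 4. Chil3, the chitinase-like protein Ym1, had 1186, 7893 and 21819 CPM in anti-IL-33 libraries against 6624, 12442 and 16614 CPM in untreated libraries. Of the anti-IL-33 libraries 7 were below every untreated one and 3 were above all of them, so the groups overlapped widely, and Chil3 changed by -0.33 ± 0.39 (adjusted p = 0.524). In all, 10 of 16 genes of this list fell and none rose, with a median of -0.70.

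Monocyte and interstitial macrophage genes fell in 5 of 15, with a median of -0.21, and the count was 1 without untreated libraries 1 and 4, where 1 gene rose. Spp1, the matrix protein osteopontin, changed by -1.71 ± 0.42 (adjusted p = 0.00245). The complement genes C1qa, C1qb and C1qc, between -0.21 and -0.17, did not pass the test. Alveolar macrophage genes rose in 2 of 12 (Cidec and Krt79) and fell in 1 (Fabp5), with a median of 0.17, near or below the 15.9% and 19.9% of all genes called higher and lower. None of these 3 passed without untreated libraries 1 and 4, Krt79 did not pass without untreated library 4 (adjusted p = 0.0506), and 0 of the list fell without 4-week library 10. Cidec, a lipid droplet gene also expressed in fat, changed by 2.11 ± 0.60 (adjusted p = 0.00743), and by 1.20 without anti-IL-33 library 7. Of 12 dendritic cell genes 2 were higher and 2 lower, also near the shares of all genes. Those higher included Xcr1, the receptor of cross-presenting cells, at 0.63 ± 0.18 (adjusted p = 0.00683), and those lower included Fscn1, which shapes mature dendritic cells, at -1.30 ± 0.21 (adjusted p = 4.22e-05). Without untreated libraries 1 and 4, Xcr1 was at 0.38 and did not pass (adjusted p = 0.146), and Fscn1 was at -0.67. Of 10 antigen presentation genes 1 rose (H2-Ob) and 1 fell (Cd74), and neither passed the test without untreated library 1, where Cd74 changed by -0.14 (adjusted p = 0.311).

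**Figure D2:**
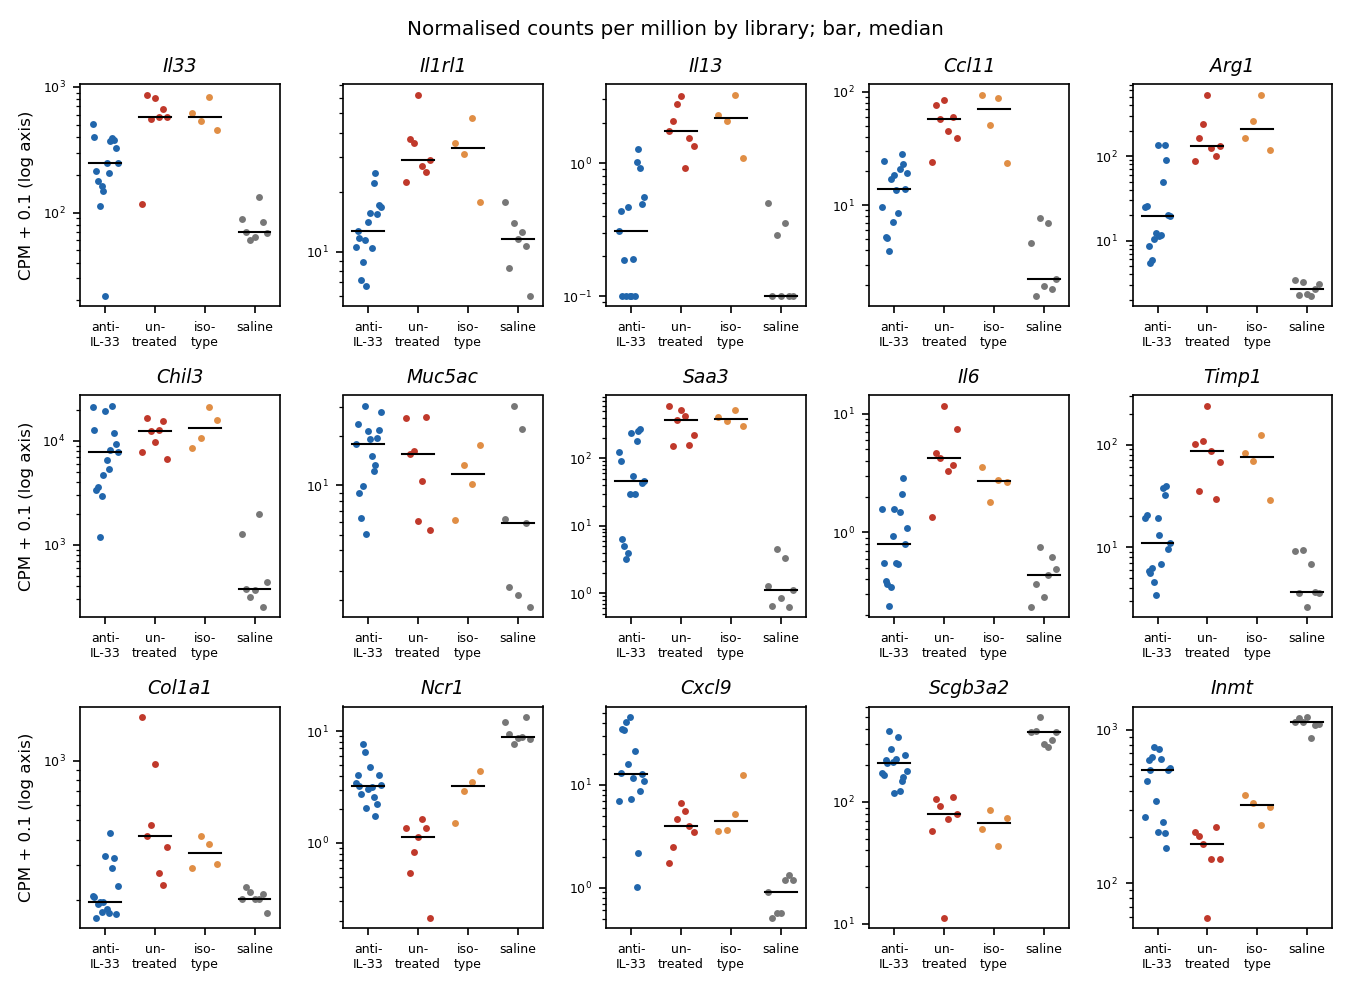
Scaled CPM plus 0.1 on log axes for 15 genes, with 1 point per library and a bar at the group median, for 15 anti-IL-33, 7 untreated, 4 isotype and 7 saline libraries. For Il1rl1 14 of 15 and for Il13 13 of 15 anti-IL-33 libraries lie below all untreated ones, Chil3 and Muc5ac overlap, and Ncr1 and Scgb3a2 lie above all untreated ones in all 15.

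Genes that attract and activate neutrophils had the lowest median of the lists, -1.22. Of 11 measured, 8 fell and 1 rose. Il6, a cytokine that drives acute phase proteins (chr5:30013114-30019975), had 0.137, 0.693 and 2.76 CPM in anti-IL-33 libraries, against 1.25, 4.13 and 11.6 CPM in untreated libraries, and changed by -2.58 ± 0.35 (adjusted p = 6.88e-06). Il1b changed by -1.22 ± 0.22 (adjusted p = 0.000144) and the CXCR2 ligand Cxcl1 by -1.08 ± 0.33 (adjusted p = 0.0117), with an adjusted p of 0.0661 without untreated libraries 1 and 4. Tnf changed by -0.67 ± 0.23 (adjusted p = 0.0234), and its adjusted p was 0.0559 without untreated library 1 and 0.0905 without untreated library 4. The gene that rose was Ccl20, an epithelial chemokine for CCR6-bearing cells, at 1.50, and 0 of the list rose without untreated libraries 1 and 4. Neutrophil genes fell in 9 of 12, none rose, and the median was -0.99. Retnlg had 7.23, 11.97 and 23.1 CPM in anti-IL-33 libraries and 18.8, 28.5 and 41.3 CPM in untreated libraries, a change of -1.17 ± 0.21 (adjusted p = 0.000176). The gelatinase gene Mmp9 changed by -1.0002 ± 0.20 (adjusted p = 0.000402), by -0.66 without untreated library 1, and by -0.51 (adjusted p = 0.0622) without libraries 1 and 4.

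Acute phase and complement genes fell in 10 of 15 and none rose, with a median of -0.52, and 3 were lower without untreated libraries 1 and 4. Saa3, a serum amyloid made in inflamed tissue, had 3.15, 46.8 and 269 CPM in anti-IL-33 libraries, against 153, 377 and 607 CPM in untreated libraries. The anti-IL-33 libraries spread over nearly the whole span between saline, with at most 4.49 CPM, and untreated lungs, and the log2 fold change was -2.02 ± 0.60 (adjusted p = 0.00917), or -1.61 (adjusted p = 0.0893) without untreated libraries 1 and 4. C3, the central complement component, had 1215, 1810 and 2679 CPM in anti-IL-33 libraries and 2571, 3501 and 5390 CPM in untreated libraries, a change of -0.97 ± 0.14 (adjusted p = 1.26e-05). Serpina3n, a protease inhibitor, changed by -1.13 ± 0.18 (adjusted p = 4.27e-05).

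Of 12 goblet cell genes 3 fell, near the 19.9% of all genes called lower, and none rose, with a median of -0.37. The gel-forming mucin gene Muc5ac had 4.93, 17.8 and 30.7 CPM in anti-IL-33 libraries and 5.27, 15.5 and 26.1 CPM in untreated libraries. These ranges nearly coincide, and the change was 0.10 ± 0.41 (adjusted p = 0.863). Clca1, a secreted regulator of mucus, had 47.6, 183 and 893 CPM in anti-IL-33 libraries and 109, 399 and 573 CPM in untreated libraries, a change of -0.44 ± 0.66 (adjusted p = 0.62). Slc26a4, the anion exchanger pendrin, did separate the groups, with 35.98, 125 and 275 CPM in anti-IL-33 libraries against 358, 499 and 820 CPM in untreated libraries. All 15 lay below every untreated library, and the change was -1.92 ± 0.32 (adjusted p = 6.77e-05). Creb3l1, a secretory pathway factor, changed by -0.94 ± 0.17 (adjusted p = 0.000127), and by -0.60 without untreated library 1.

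Mucosal defence genes were lower in 4 of 11 and higher in 2, against 19.9% and 15.9% of all genes, so the 2 higher were near the share of all genes. Without untreated libraries 1 and 4, 2 were lower and 1 higher. Duox1, the epithelial hydrogen peroxide producer whose promoter stretch is given above, had 0.137, 0.786 and 6.91 CPM in anti-IL-33 libraries and 3.04, 6.02 and 76.0 CPM in untreated libraries. It changed by -3.25 ± 0.58 (adjusted p = 0.000162), and by -2.09 without untreated library 4, which held the 76.0 CPM. Its maturation factor Duoxa1 changed by -2.91 ± 0.56 (adjusted p = 0.000268), and by -1.89 without untreated libraries 1 and 4. Nos2, the inducible nitric oxide synthase, changed by -1.27 ± 0.25 (adjusted p = 0.000295), and by -0.78 without them. Bpifa1, a secreted airway defence protein, rose by 3.42 ± 0.85 (adjusted p = 0.00276), with 2.51, 13.8 and 207 CPM in anti-IL-33 libraries against 0.936, 2.51 and 5.27 CPM in untreated libraries. Anti-IL-33 library 5 held the 207 CPM, and the change was 2.55 without it. Saline libraries had 1.20 to 111 CPM of Bpifa1 and isotype libraries 3.24 to 64.2 CPM, so both overlapped the anti-IL-33 libraries. Reg3g, an antibacterial lectin, also rose, at 1.10.

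The matrix list had the largest share of falling members among the lists, 18 of 20, with a median of -0.87, and 1 gene rose (Timp3, at 0.48). Without untreated libraries 1 and 4 the number that fell was 10, in a fit that called 691 of 15586 genes lower. Timp1, an inhibitor of matrix-degrading enzymes, had 3.29, 10.8 and 39.3 CPM in anti-IL-33 libraries and 29.2, 87.4 and 240 CPM in untreated libraries, a change of -2.62 ± 0.42 (adjusted p = 5.89e-05). Col1a1, the main fibrillar collagen chain (chr11:94936224-94953042), had 161, 195 and 431 CPM in anti-IL-33 libraries against 238, 418 and 1663 CPM in untreated libraries. The anti-IL-33 median was below the saline median of 201 CPM. Col1a1 changed by -1.44 ± 0.24 (adjusted p = 6.12e-05), and by -0.63 without untreated libraries 1 and 4. Tnc, a glycoprotein of injured tissue, and the collagenase gene Mmp14 changed by -1.52 ± 0.21 and -0.94 ± 0.15 (adjusted p = 1.00e-05 and 4.63e-05), and Mmp14 by -0.53 without untreated libraries 1 and 4.

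Among called genes whose higher group averaged 2 CPM or more, the 8 largest falls were Fgf23, A2m, Cebpe, Duox1, Dlk1, Ccl24, Duoxa1 and Fxyd4. Fgf23, a phosphate-regulating hormone usually made in bone, had 0, 0.594 and 9.92 CPM in anti-IL-33 libraries, against 6.92, 13.9 and 53.9 CPM in untreated libraries. Saline libraries had at most 0.281 CPM, and the change was -3.51 ± 0.55 (adjusted p = 4.27e-05). Cebpe, a granulocyte transcription factor, changed by -3.28 ± 0.46 (adjusted p = 1.04e-05) and Fxyd4, a sodium pump regulator, by -2.78 ± 0.39 (adjusted p = 1.11e-05). For A2m, a protease inhibitor, untreated library 4 had 74.5 CPM and the next untreated library 5.89 CPM, and the change of -3.32 ± 0.60 (adjusted p = 0.000162) was -1.37 without it. Dlk1, a Notch-like membrane protein, changed by -3.19 ± 0.68 (adjusted p = 0.000752), and by -0.75 (adjusted p = 0.469) without untreated libraries 1 and 4.

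The smallest adjusted p in the whole table belonged to genes outside those rules, named here after their values were seen. Ccn1, a matrix-associated signalling protein of injured tissue, had 20.6, 40.8 and 82.1 CPM in anti-IL-33 libraries and 59.9, 113 and 244 CPM in untreated libraries, a change of -1.83 ± 0.19 (adjusted p = 6.98e-08). Saline libraries had 88.5 to 136 CPM and isotype libraries 38.2 to 65.1 CPM, so anti-IL-33 lay below saline, and isotype was 1.45 lower than untreated on the log2 scale (adjusted p = 0.0513). H1f0, a linker histone of resting cells, fell by 0.49 ± 0.05 (adjusted p = 7.32e-08), with 95.3, 110 and 127 CPM in anti-IL-33 libraries against 131, 151 and 193 CPM in untreated libraries, and no library overlapped. Fst, which binds activin, and Tarm1, a myeloid receptor, changed by -1.89 ± 0.23 and -2.48 ± 0.31 (adjusted p = 1.50e-06 and 2.78e-06).

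Natural killer (NK) and cytotoxic genes rose in 11 of 12, with a median of 1.09. Ncr1, the activating receptor NKp46 (chr7:4337715-4345184), had 1.63, 3.14 and 7.52 CPM in anti-IL-33 libraries, against 0.112, 1.03 and 1.52 CPM in untreated libraries. All 15 lay above every untreated library and below every saline library, and the change was 1.95 ± 0.31 (adjusted p = 4.27e-05). Klrb1c, the receptor NK1.1, changed by 1.04 ± 0.22 (adjusted p = 0.000669) and Gzma, a granzyme, by 1.07 ± 0.25 (adjusted p = 0.00142). The isotype libraries were not at the untreated level in these genes. Ncr1 had 1.41, 3.11 and 4.32 CPM with the isotype. Gzma had 4.61, 8.78 and 22.98 CPM with anti-IL-33, against 10.5, 13.8 and 20.1 CPM with the isotype and 3.72, 5.15 and 6.55 CPM in untreated libraries. Against the isotype, Ncr1 changed by 0.25 (adjusted p = 0.63) and Gzma by -0.44 (adjusted p = 0.275). With the mean of untreated and isotype libraries as reference, 7 of the 12 rose.

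Interferon-gamma and its targets rose in 10 of 13 and none fell, with a median of 0.86. Cxcl9, a chemokine for CXCR3-bearing T and NK cells (chr5:92321331-92328079), had 0.926, 12.7 and 46.2 CPM in anti-IL-33 libraries and 1.63, 3.86 and 6.58 CPM in untreated libraries. Of the anti-IL-33 libraries 13 lay above every untreated one and 1 lay below all of them, and the change was 2.16 ± 0.49 (adjusted p = 0.00126). Gbp2, a guanylate-binding protein, changed by 0.90 ± 0.20 (adjusted p = 0.00132). Ifng itself had 0.185, 0.627 and 2.30 CPM in anti-IL-33 libraries against 0, 0.337 and 0.655 CPM in untreated libraries, a change of 1.32 ± 0.50 (adjusted p = 0.0362). It did not pass without untreated library 1, 3 or 4 (adjusted p = 0.103, 0.0834 and 0.0682), or without libraries 1 and 4 (adjusted p = 0.207). The number of the list's genes that rose was 4 without untreated library 1, 2 without libraries 1 and 4, and 5 with untreated and isotype libraries as reference. Over all genes, those fits called 1658 of 15591, 765 of 15586 and 2887 of 15598 higher. This list was added to the promoter search. The STAT palindrome with 4 free bases was in 1 of its 8 risen genes with a promoter entry (Gbp3), against 6.757% of genes. The one with 3 free bases was in 3 of the 8 (Ifng, Gbp5, Igtp), against 8.13% of genes. Matches with 3 free bases close to the start were at chr3:142496867-142496905 for Gbp5 and chr11:58199496-58199534 for Igtp, both on the plus strand and shown with the palindrome in capitals.
Gbp5: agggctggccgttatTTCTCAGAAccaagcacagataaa
Igtp: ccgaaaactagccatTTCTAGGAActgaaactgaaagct

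Type I interferon response genes rose in 5 of 16 and fell in 1, with a median of 0.17, and 2 rose without untreated library 1 and 1 without libraries 1 and 4. Ifit2, an interferon-induced antiviral protein, changed by 0.88 ± 0.22 (adjusted p = 0.00249). T cell genes rose in 6 of 15 and none fell, with a median of 0.23. The CD8 chains led them, with Cd8a at 4.35, 11.2 and 22.4 CPM in anti-IL-33 libraries and 2.18, 5.38 and 7.37 CPM in untreated libraries, a change of 1.26 ± 0.28 (adjusted p = 0.00102), and Cd8b1 at 0.94 ± 0.26 (adjusted p = 0.00665). Cd4, at 0.31, and the regulatory T cell factor Foxp3, at -0.35, did not pass the test.

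Genes of ciliated and club cells rose. Ciliated cell genes were higher in 10 of 12, none fell, and the median was 0.79, with the axoneme assembly gene Ccdc40 at 0.81 ± 0.15 (adjusted p = 0.000257) and the ciliary tip gene Sntn at 0.83 ± 0.17 (adjusted p = 0.000497). Club cell genes were higher in 5 of 8, with a median of 0.61, and in 2 without untreated libraries 1 and 4. Scgb3a2, a secretoglobin, had 118, 210 and 385 CPM in anti-IL-33 libraries against 10.96, 80.1 and 110 CPM in untreated libraries. Every anti-IL-33 library was above every untreated one, isotype libraries had 43.1 to 85.9 CPM, and the change was 1.50 ± 0.31 (adjusted p = 0.000618). Cyp2f2, a club cell cytochrome, changed by 1.06 ± 0.25 (adjusted p = 0.0019).

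The alveolar lists moved apart. Type I alveolar genes rose in 7 of 12 and fell in 1 (Pdpn), with a median of 0.47, and 3 rose without untreated libraries 1 and 4. Rtkn2 had 62.8, 128 and 218 CPM in anti-IL-33 libraries and 46.3, 76.2 and 88.0 CPM in untreated libraries, a change of 0.87 ± 0.18 (adjusted p = 0.000673), and the caveolae gene Cav1 changed by 0.78 ± 0.18 (adjusted p = 0.00153). Type II alveolar genes fell in 7 of 11 and none rose, with a median of -0.34. Sftpd, the collectin surfactant protein D, had 760, 1289 and 2614 CPM in anti-IL-33 libraries against 1929, 2290 and 3888 CPM in untreated libraries, a change of -0.77 ± 0.18 (adjusted p = 0.00139). The protease gene Napsa changed by -0.68 ± 0.14 (adjusted p = 0.000647), and by -0.36 without untreated library 1, where 4 of the 11 fell. Without libraries 1 and 4 Napsa was at -0.20 (adjusted p = 0.103).

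Fibroblast and smooth muscle genes rose in 5 of 12 and fell in 1 (Acta2), with a median of 0.22. All 5 that rose are known from alveolar fibroblasts, namely Inmt, Tcf21, Npnt, Itga8 and Pdgfra. Inmt, a methyltransferase, had 169, 543 and 767 CPM in anti-IL-33 libraries and 59.1, 180 and 232 CPM in untreated libraries, a change of 1.49 ± 0.26 (adjusted p = 0.000127), and Tcf21 changed by 1.22 ± 0.24 (adjusted p = 0.00037). Isotype libraries had 238, 322 and 373 CPM of Inmt, above every untreated library, and anti-IL-33 was 0.59 ± 0.31 higher than isotype on the log2 scale (adjusted p = 0.203). The smooth muscle genes Myh11, Tagln, Cnn1, Des and Lmod1 did not pass the test. Acta2 did not pass without untreated libraries 1 and 4. Endothelial genes rose in 4 of 12 and fell in 2, against 15.9% and 19.9% of all genes, so the 2 that fell were near the share of all genes. Without untreated libraries 1 and 4, 1 rose and 1 fell, and 1 fell without 4-week library 10. Ednrb, an endothelin receptor of alveolar capillaries, changed by 1.26 ± 0.29 (adjusted p = 0.0016) and Aplnr, the apelin receptor, by -0.77 ± 0.16 (adjusted p = 0.000664).

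Plasma cell genes fell in 7 of 11 and none rose, with a median of -0.67, and 4 fell without untreated libraries 1 and 4 and after correction for GC content and length. Sdc1, also expressed by epithelium, changed by -0.79 ± 0.14 (adjusted p = 0.000129), and by -0.48 without untreated library 1, and Txndc5 by -0.76 ± 0.15 (adjusted p = 0.000323). Jchain, which joins secreted IgA and IgM, had 1619, 3021 and 6955 CPM in anti-IL-33 libraries and 2310, 4128 and 7070 CPM in untreated libraries, a change of -0.48 ± 0.40 (adjusted p = 0.341). Genes for protein folding in the endoplasmic reticulum fell in 9 of 12, with a median of -0.51. Dnajb11 fell by 0.57 ± 0.10 (adjusted p = 8.66e-05), with all 15 anti-IL-33 libraries below every untreated one, and Calr by 0.68 ± 0.13 (adjusted p = 0.000257), or by 0.39 without untreated libraries 1 and 4. Of 11 B cell genes 1 fell, the IgE receptor Fcer2a, by 0.82 ± 0.15 (adjusted p = 0.00023). Blk, a B cell kinase, had a change of 0.53 ± 0.22 and did not pass the test (adjusted p = 0.0542). Of 12 lymphoid aggregate genes 3 were lower, near the 19.9% of all genes, including the chemokine Cxcl12 at -0.74 ± 0.12 (adjusted p = 6.24e-05) and the B cell survival factor Tnfsf13b at -0.46 ± 0.12 (adjusted p = 0.00409).

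Proliferation genes fell in 7 of 16, with a median of -0.38, and 1 fell without untreated libraries 1 and 4. Cdc20 changed by -0.75 ± 0.18 (adjusted p = 0.0023) and the mitotic kinase Plk1 by -0.62 ± 0.15 (adjusted p = 0.00276), while Mki67, at -0.10, did not pass the test. Without untreated libraries 1 and 4 neither Cdc20 nor Plk1 passed (adjusted p = 0.108 and 0.131). Sterol and fatty acid synthesis genes fell in 5 of 16, with a median of -0.12, in 2 without untreated library 1 and in 0 without libraries 1 and 4. Fasn, the fatty acid synthase, changed by -0.96 ± 0.23 (adjusted p = 0.00204), and by -0.51 without untreated library 1, and Dhcr7 by -0.66 ± 0.17 (adjusted p = 0.00323). Without libraries 1 and 4 the adjusted p was 0.358 for Fasn and 0.172 for Dhcr7. Of 11 leukotriene and prostaglandin genes 2 fell, near the 19.9% of all genes called lower, with a median of -0.05. They were Ptges at -0.94 ± 0.12 and Ptgs1 at -0.73 ± 0.15 (adjusted p = 6.88e-06 and 0.000578). Immediate early genes, which handling of tissue can also induce, fell in 7 of 10, with a median of -0.63. Their summed level was 372, 440 and 705 CPM in anti-IL-33 libraries and 535, 647 and 1017 CPM in untreated libraries, and its part in the other results was not tested.

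**Figure D3:**
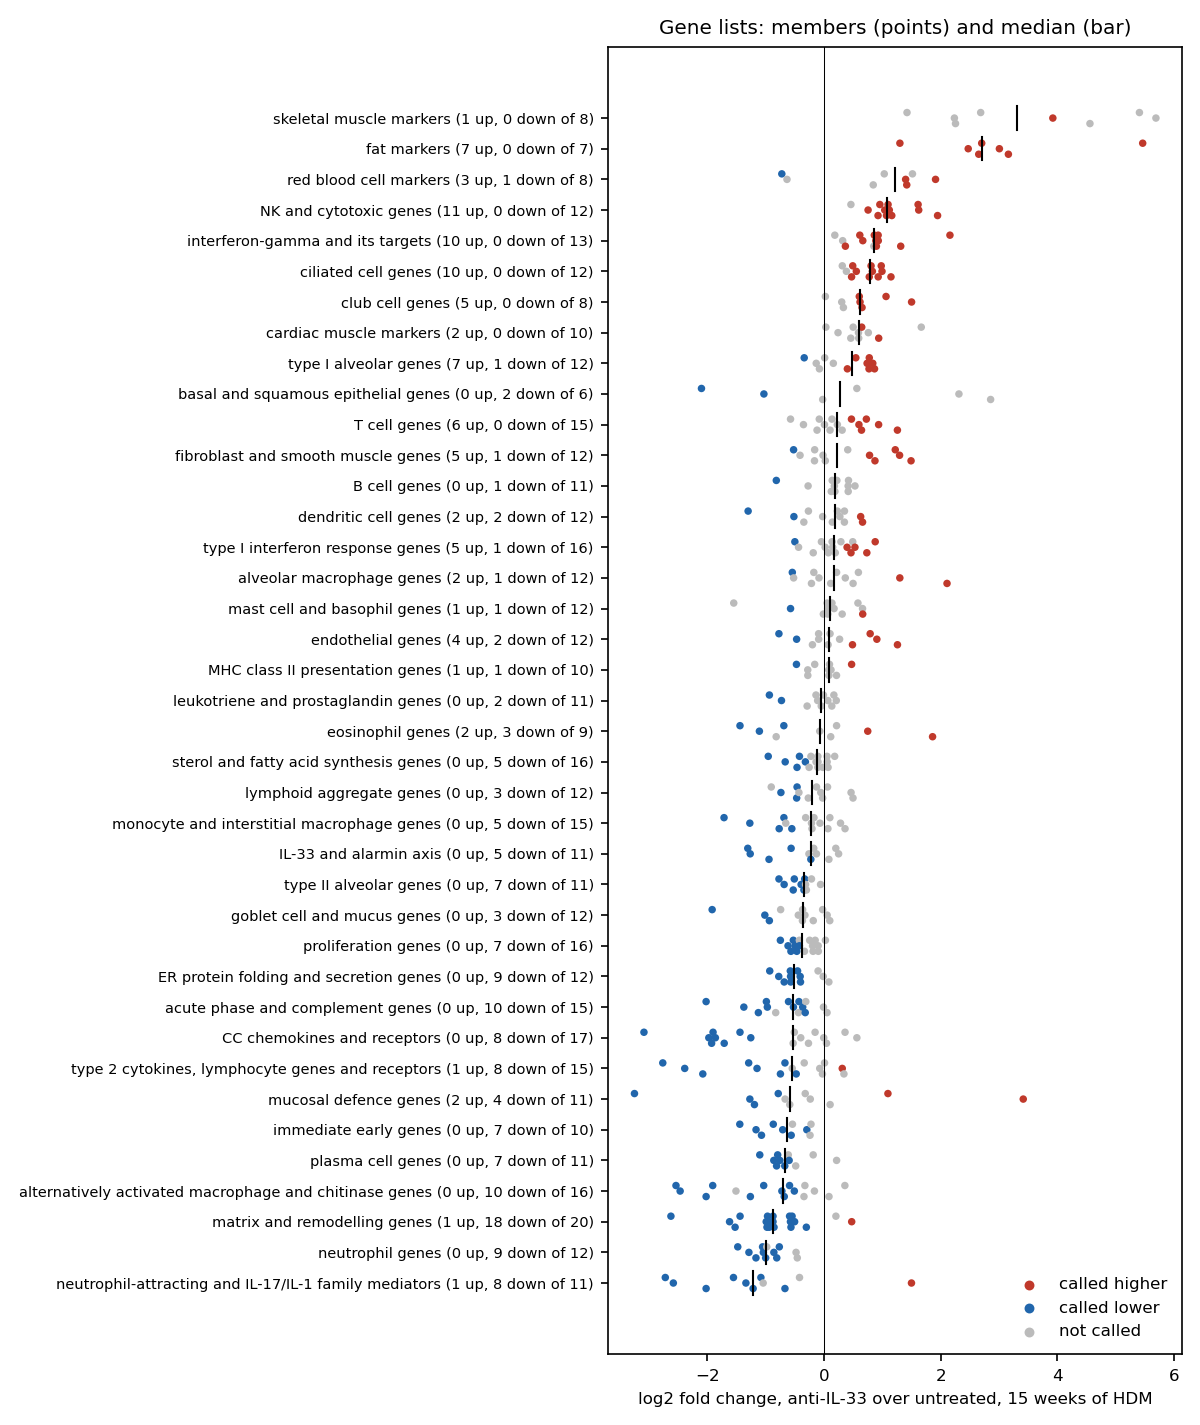
Log2 fold change (anti-IL-33 over untreated, x axis) of every measured member of 39 gene lists, sorted by median, with red for members called higher, blue for members called lower, grey for those not called and a black bar at the list median. The NK, interferon-gamma, ciliated and club lists lie to the right of 0 and the neutrophil-attracting, neutrophil and matrix lists to the left, and the skeletal muscle list, far to the right, has its highest levels within the groups compared in anti-IL-33 libraries 7 and 12.

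The 8 largest rises were Rptn, Pck1, Tgm3, Serpinb12, Cdsn, Bpifa1, Krt78 and Car3, and except for Bpifa1 their highest values were in anti-IL-33 library 7. Rptn, a cornified epithelium gene, had 361 CPM in anti-IL-33 library 7, 112 CPM in library 12 and at most 1.23 CPM in the other 13, against 0, 0.112 and 1.08 CPM in untreated libraries. Its log2 fold change of 6.50 ± 2.05 (adjusted p = 0.0142) was 1.04 (adjusted p = 0.594) without both. Tgm3 and Krt78, also squamous genes, changed by 5.22 ± 1.77 and 3.34 ± 1.29 (adjusted p = 0.0214 and 0.0408), and by 0.01 and 0.25 without both libraries. Rptn, Tgm3, Serpinb12, Cdsn and Krt78 also did not pass without untreated libraries 1 and 4 (adjusted p between 0.0937 and 0.156). Pck1, a gluconeogenic enzyme of liver, kidney and fat, had 224 CPM in library 7 and at most 5.56 CPM in the other anti-IL-33 libraries, against 0, 0.351 and 0.627 CPM in untreated libraries. It changed by 5.47 ± 1.23 (adjusted p = 0.00134), and by 2.78 ± 0.69 (adjusted p = 0.0024) without libraries 7 and 12. Car3, a carbonic anhydrase of fat and muscle, changed by 3.32 ± 0.83 (adjusted p = 0.00283), and by 1.60 without them.

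The same libraries held markers of other tissues. The summed level of basal and squamous genes was 3504 CPM in library 7 and 1628 CPM in library 12, between 3.70 and 13.4 CPM in the other 13 anti-IL-33 libraries and between 10.3 and 28.97 CPM in untreated libraries. Over all libraries 2 of the 6 measured members fell, Ngfr and Ivl, at -1.03 ± 0.21 and -2.10 ± 0.59 (adjusted p = 0.000493 and 0.00632), and 4 fell without libraries 7 and 12. Skeletal muscle markers summed to 581 and 430 CPM in libraries 7 and 12, at most 7.63 CPM in the other 13 and at most 46.9 CPM in untreated libraries, and 1 of 8 was called, or 3 without 4-week library 10. Fat markers rose in 7 of 7, with 1309 CPM in library 7, a median of 31.5 CPM in the 13 libraries other than 7 and 12, and a median of 14.2 CPM in untreated libraries, and 6 rose without libraries 7 and 12. Red blood cell markers had a median of 2629 CPM in anti-IL-33 libraries and 885 CPM in untreated libraries, with 3 of 8 higher and 1 lower. Cardiac muscle markers had medians of 283 CPM in anti-IL-33 and 146 CPM in untreated libraries, with 2 of 10 higher, near the 15.9% of all genes. Outside the comparison, 4-week library 10 held 1812 CPM of the squamous and 1271 CPM of the skeletal muscle markers, against at most 17.8 and 11.7 CPM in the other 9 4-week libraries. The part of these markers in the other results was not tested. Without libraries 7 and 12 the whole comparison called 5642 genes, and the largest rises were Bpifa1 at 3.55 ± 0.84, Pck1, the sulfotransferase gene Sult1d1 at 2.59 ± 0.41 and Btnl6 at 2.53 ± 0.51 (adjusted p = 0.0018, 0.0024, 3.36e-05 and 0.000405).

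**Figure D4:**
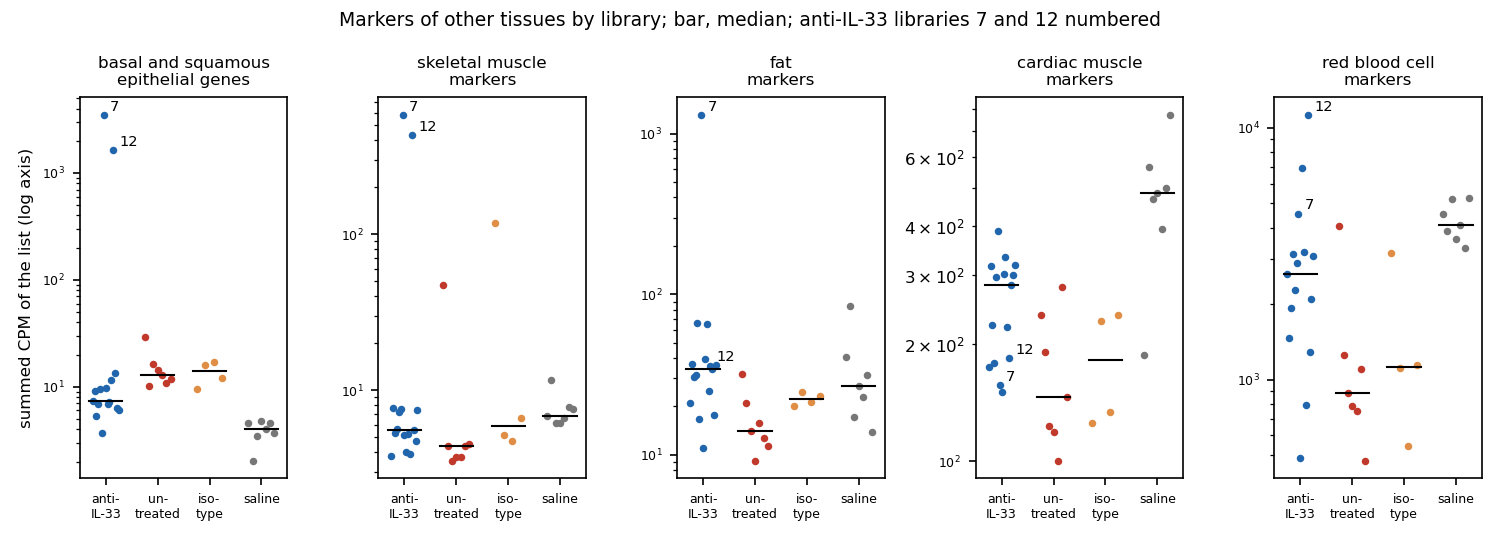
Summed CPM (log axes) of markers of 5 other tissues or cell types, 1 point per library and a bar at the median, for anti-IL-33, untreated, isotype and saline libraries. Anti-IL-33 libraries 7 and 12 stand apart for squamous and skeletal muscle markers, at 3504 and 1628 CPM and at 581 and 430 CPM, and library 7 alone for fat markers at 1309 CPM.

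The change with anti-IL-33 was then set beside genes that HDM had changed early, taken from a separate fit of the 10 4-week and 7 saline libraries. These libraries are in neither group of the anti-IL-33 comparison, but they share its estimate of the spread and of the range term. Of 1098 genes raised at least 2-fold at 4 weeks (7.35% of 14941 tested in that fit), 532 were lower with anti-IL-33 than in untreated lungs at 15 weeks, or 48.5%, against 19.9% of all genes. Their median log2 fold change was -0.49. Of 715 genes lowered at least 2-fold at 4 weeks (4.79%), 509 were higher with anti-IL-33, or 71.2%, against 15.9% of all genes, with a median of 0.77. Exceptions were few, with 10 of the 1098 higher and 1 of the 715 lower. Without 4-week library 10 the shares were 48.3% of 1086 and 71.6% of 753 genes, and with the anti-IL-33 change fitted on the 22 compared libraries alone they were 45.4% and 70%, against 17% and 13.6% of all genes in that fit. The 10 were Mir155hg, Cd72, Dnase1l3, Cxcl10, Krt15, Cxcl9, Reg3g, Ccl20, Fcrl1 and Psapl1, and they include the CXCR3 ligands Cxcl9 and Cxcl10, the CCR6 ligand Ccl20 and the B cell genes Cd72 and Fcrl1. Krt15, a basal epithelial keratin, had too few counts for the 4-week test without library 10, and Krt15 and Psapl1 changed by 0.37 and 0.09 (adjusted p = 0.757 and 0.925) without anti-IL-33 libraries 7 and 12. On the 22 libraries alone 5 of these 10 genes passed, namely Cxcl10, Cxcl9, Reg3g, Ccl20 and Fcrl1. Cxcl9 was 2.83 higher at 4 weeks than in saline on the log2 scale, and a further 2.16 higher with anti-IL-33 than untreated. The 1 lowered gene that was lower still was Cxcl14, an epithelial chemokine, at -0.85 ± 0.22 (adjusted p = 0.00305). When genes of any fold at 4 weeks were taken, 47.1% of the raised genes were lower and 42.6% of the lowered genes were higher.

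Named genes, most of them chosen because they were called over both ranges together, had the same directions in both number ranges, with different sizes. All 100 named genes with a value in both ranges had the same sign in each, with a median size of 1.36 on the log2 scale in range 1 and 0.68 in range 2, and 95 of them were smaller in range 2. Of all 5588 called genes 5232 had the same direction in range 2 alone, but the calls came from a fit that includes the range 2 libraries. Col1a1, for example, changed by -1.88 in range 1 and by -0.25 in range 2, and Saa3 by -2.74 and -0.60, while Ncr1 changed by 1.94 and 2.03. Range 1 alone, with 8 against 5 libraries, called 3561 genes, and range 2 alone, with 7 against 2, called 4. The difference of the effect between ranges passed for 0 of 15598 genes by edgeR's test (0%), with 1583 at an unadjusted p under 0.05, and for 0 by limma-voom. Anti-IL-33 libraries 11, 12 and 13, all of range 2, were among the 5 highest of their group for 52, 53 and 51 of the 63 named genes that fell. The other range 2 libraries, 9, 10, 14 and 15, were there for 10, 2, 7 and 25 genes. Range 1 libraries were there for 2 (library 6) to 35 genes (library 8). Untreated libraries 1 and 4 belong to range 1, and the sources used here do not say what the ranges mean.

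**Figure D5:**
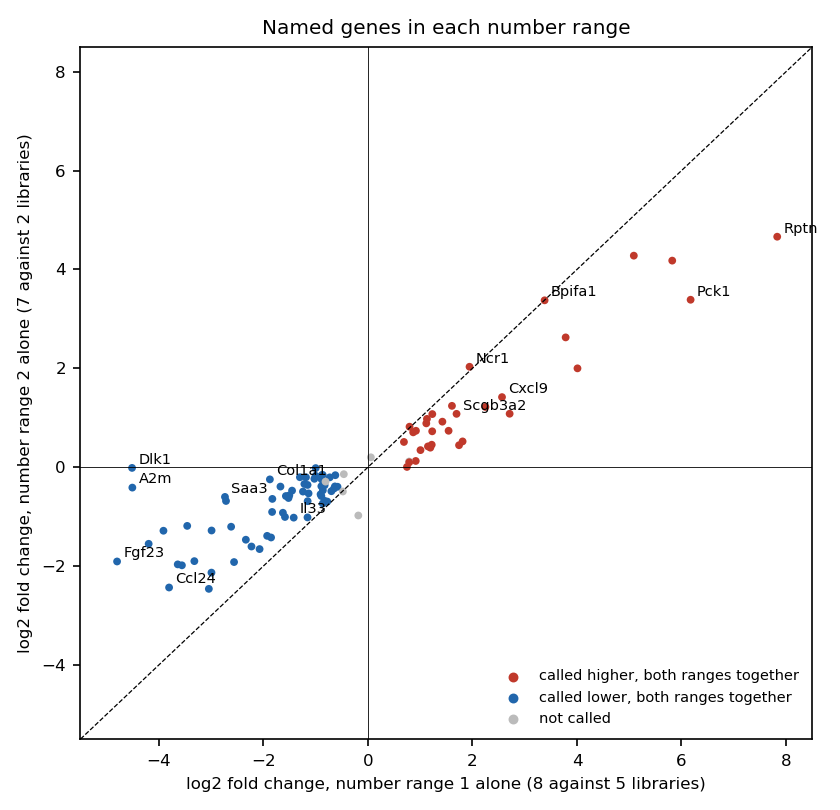
Log2 fold change (anti-IL-33 over untreated) of named genes within number range 1 (x axis, 8 against 5 libraries) and within number range 2 (y axis, 7 against 2 libraries), with a dashed line of equality. All 100 genes lie in the quadrants of equal sign, and 95 lie closer to 0 in range 2.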

How the data were processed

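Strand-specific mRNA libraries of total lung RNA were sequenced, per the labels' protocols, and the authors deposited whole-number counts per Entrez gene, without normalization. The genome build was GRCm38, per the submitters' processing notes, and the sources used here do not name the aligner, counting tool or strand setting. Of 24475 IDs in the table, 24375 had a GRCm38.p6 gene by Entrez number, and the other 100 held 2.62% of counts and were kept in the library totals. Read counts of near-identical or overlapping genes may be split unevenly, and 42 IDs shared a row of counts with another.

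Counts of all 43 libraries entered 1 edgeR 4.0.16 quasi-likelihood fit (R 4.3.3; TMM scaling, filterByExpr, robust), with terms for group and number range, which left 15598 genes. Genes with a BH-adjusted p under 0.05 over all genes are called, and SE is the absolute log2 fold change over the root of the F statistic. CPM were scaled by TMM library sizes. Library depth limits genes under about 1 CPM. Nothing in the labels says that libraries came from separate animals, so p-values measure the spread between these samples, which may be technical. Alternatives used limma 3.58.1 (voom), DESeq2 1.42.0, other size factors and filters, and left-out libraries. Scripts were tested on simulated data.

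The rule for named genes took the 8 largest rises and falls among called genes whose higher group averaged 2 CPM or more (receptor and antibody segment, predicted and clone-named genes left out), the 2 members with the smallest p of each of 34 lists, and a fixed set of names, 102 genes in all. Another 6 lists, of other tissues, immediate early and sex-linked genes, were added, and of the last list Xist alone was tested and was not called. Members and lists were chosen with earlier results of these data known. Ear11 and Ahsp had no row, and 28 listed genes had too few counts. Values of 2 list members are not reported here.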

Additional observations from a re-analysis of the deposited data

Results flagged for a closer look

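In the 7 untreated libraries 28 of 115 genes had 1 library far from the other 6 by Dixon's test on CPM. The test is set to flag about 1 in 20 groups by chance. Most of the 115 genes were chosen by their change in these same data, so that rate is no yardstick for the 28. Untreated library 4 accounted for 16 of them. It held the highest values of Fgf23 (53.9 CPM), A2m (74.5 CPM), Duox1 (76.0 CPM), Ccl24 (22.3 CPM), Duoxa1 (20.9 CPM), Fxyd4 (31.2 CPM), Il1rl1 (62.2 CPM) and Ccl9 (445 CPM). The same library was highest for Ccl2 (29.1 CPM), Serpina3n (442 CPM), Arg1 (527 CPM), Timp1 (240 CPM), Fst (28.4 CPM), Tarm1 (10.3 CPM) and Mmp13 (53.3 CPM), and lowest for Tcf21 (8.13 CPM).

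Untreated library 1 accounted for 9. It was highest for Cd74 (6924 CPM), Mmp9 (58.8 CPM), Creb3l1 (117 CPM), Napsa (1317 CPM), Sdc1 (1031 CPM), Plk1 (11.9 CPM), Fasn (6731 CPM) and Dhcr7 (114 CPM), and lowest for Il33 (117 CPM). Library 3 was highest for the eotaxin receptor Ccr3 (15.2 CPM), and library 6 for Cxcl1 (23.4 CPM) and Btnl4 (1.80 CPM). Without untreated libraries 1 and 4, 1307 of the 5588 called genes stayed called. Of the 115 genes, 26 did not pass the test that they had passed. The cause of these values was not tested.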

How the results depend on the processing

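No paired analysis was possible because the labels give no numbers that pair samples across groups. The 5588 calls became 3561 in number range 1 alone (1458 higher) and 4 in range 2 alone (0 higher, 4 lower, 2 at least 2-fold). Leaving out 1 untreated library at a time gave 3459 to 6251 calls, with 1555 to 2793 higher, 1801 to 3458 lower and 478 to 872 changed at least 2-fold. Leaving out 1 anti-IL-33 library gave 4846 to 5969. Alternatives added after seeing the data gave 1456 calls without untreated libraries 1 and 4 (765 higher, 691 lower, 243 at least 2-fold) 2008 lower without untreated library 1 and anti-IL-33 libraries 7 and 12, and 5488 calls without 4-week library 10. Other size factors, filters, limma-voom, DESeq2 (6007 calls), GC and length correction (5324), no range term and the joint untreated and isotype reference (5802, of which 49.76% higher, against 44.47%) stayed within 1.5 times in the number of calls. Of the 5588 main calls, 4084 stayed called with GC and length correction, 4620 with the joint reference and 5535 with DESeq2. Genes lowered at 4 weeks were higher in 42.6% when any fold counted. Muc5ac, not called, ranged from -0.086 to 0.30 without 1 library at a time, below 0 without untreated library 4 or 7 or anti-IL-33 library 6. The causes were not tested. In range 2 only 2 untreated libraries limit the test, and genes under about 1 CPM rest on few counts.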

Other observations

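In anti-IL-33 library 8 the Il33 level was 21.5 CPM, below every saline library, and the library was among the 5 highest of its group for 35 of the 63 named genes that fell. Untreated library 1 had the lowest Il33 level of its group, 117 CPM, and the highest Col1a1 level, 1663 CPM.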
